A study of Emiliania huxleyi with 18 samples.

Results

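The subject is a single contrast in ageing cultures of the coccolithophore Emiliania huxleyi: how the transcript difference between UV-exposed and control cultures on day 13 differed from the same difference on day 10. It was computed as UV minus control on day 13, less UV minus control on day 10, on the log2 scale, and drew on 12 of the 18 libraries of the series, 3 in each of 4 groups. All groups were axenic cultures of strain CCMP3266, in 50 ml of artificial seawater with L1 nutrients and no silicate, kept standing at 18 °C from an inoculum of 330 cells per ml. The growth chamber was lit for 16 h and dark for 8 h of each day, with a photon flux of 130 µmol per m2 and second. The groups were UV day 13, control day 13, UV day 10 and control day 10. UV cultures also stood under a reptile UVB lamp for 14 h a day, and control cultures were labelled only as controls. Intensity inside the flask, in W per m2, was 0.5 for UV-A, 0.07 for UV-B and 0.026 for UV-C. In such bulk samples, fewer cells of a kind and less RNA per cell cannot be told apart. Of 41734 genes in the files, 18196 had enough counts to be tested.

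Emiliania huxleyi is a unicellular marine alga that forms large blooms and covers itself with calcite scales. UV-B is absorbed by DNA, where it joins neighbouring pyrimidines, and by proteins of the photosynthetic apparatus, and cells meet it with repair enzymes, antioxidants and pigments. It also converts a sterol precursor to vitamin D, the subject of the series' title. Cultures grown without fresh medium age as nutrients are drawn down and cells shade each other, and their transcripts change over days. The contrast therefore asks for which genes the UV difference itself changed as the cultures aged, and it can be read along time as well: a gene scores positive when its level changed more upward, or less downward, between the harvests in UV cultures than in control cultures.

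Genes carry the authors' own identifiers, which the files do not pair with names or functions, and none of them matched the reference gene table. Markers of the alga or of other cells could therefore not be checked. Genes are grouped by how they behaved, and a few are given by identifier. The 12 libraries held 1124600 to 7455081 UMIs (unique molecular identifiers, which count captured molecules once). On day 10 the first 2 replicates of each arm differed from the rest: they held 1124600 to 1699470 UMIs and 0.870 to 0.876 UMIs per read, against 3301281 to 7455081 UMIs and 0.707 to 0.795 UMIs per read in the other 8. These 4 libraries are called shallow below, and replicate 3 of each arm on day 10 is called deep. The labels name no batch, and both arms held 2 shallow libraries. Nothing in the labels says whether replicates were separate cultures. The p-values therefore measure the spread between libraries of a group, estimated over all 18 libraries of the series, and this spread may be technical. The part of the depth difference in the results was not tested, and values within each kind of library are given below.

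The UV difference changed between the harvests in 467 genes, 2.57% of the 18196 tested, at an adjusted p under 0.05 in edgeR's quasi-likelihood test. It rose in 414 of them (2.28% of the genes tested) and fell in 53 (0.291%). The change was at least 2-fold in 231 of the genes with a rise (1.27% of the genes tested) and in 16 of those with a fall (0.0879%), and at least 4-fold in 47 and 3. Its median over the 414 genes was 1.06 on the log2 scale, with 0.84 and 1.42 at the quartiles, and over the 53 genes it was -0.87, with -1.10 and -0.73 at the quartiles. The median over all tested genes was -0.02. Without adjustment, 2220 genes (12.2%) had a p under 0.05. The count of 467 dropped by more than 1.5 times without either of 2 libraries, to 259 without UV day 13 replicate 2 and to 296 without UV day 10 replicate 3. With every library thinned to the same depth it was 210.

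Nearly all genes with a rise had crossed over. In 410 of the 414 the fitted UV level stood above control on day 13 and below control on day 10, against 24.3% of all tested genes. The median UV difference of the 414 genes was 0.49 on day 13 and -0.60 on day 10 on the log2 scale. On its own day, the UV difference passed the test as higher on day 13 in 144 of them (1.54% of all tested genes passed in that direction) and as lower on day 10 in 211 (1.88%). In either direction 2.53% of all tested genes passed on day 10 and 1.93% on day 13. Both held in 48 genes, the day 13 side alone in 96, the day 10 side alone in 163 and neither in 107, so for those 107 the change passed although neither of its sides did. Shares of all tested genes with such combinations of calls were not computed. In 162 of the 414 genes all 3 UV libraries lay above all 3 control libraries on day 13 and below all 3 on day 10, against 1.21% of all tested genes. On day 13 alone all UV libraries lay above in 276 (9.53% of all tested genes), and on day 10 alone all lay below in 280 (7.95%). These counts use the libraries that chose the genes, so they describe the genes and test nothing. The single-day calls depended on single libraries: the count over all genes was 129 without UV day 13 replicate 2, 194 without control day 13 replicate 1 and 156 without control day 13 replicate 2 on day 13, where it was 351 with all libraries. On day 10 it was 183 without UV day 10 replicate 3, 256 without control day 10 replicate 2 and 195 without control day 10 replicate 3, where it was 460 with all libraries.

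**Figure D1:**
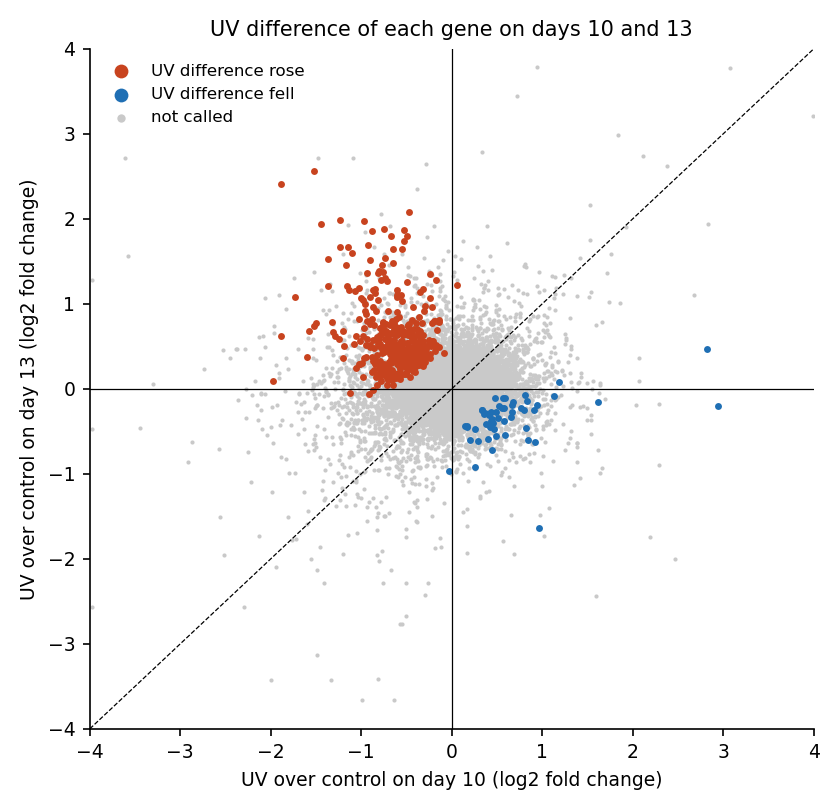
UV over control on day 13 (vertical axis) against the same on day 10 (horizontal axis), as fitted log2 fold changes, with a point per tested gene and coloured points for the 414 genes whose UV difference rose and the 53 whose UV difference fell; 12 genes lie outside the axes, and the dashed line marks equal differences. Most coloured points have opposite signs on the 2 days: 410 of the 414 rises and 50 of the 53 falls.

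By fitted signs, the 53 genes with a fall were the mirror image in 50 cases. In these the fitted UV level was below control on day 13 and above it on day 10, against 26.5% of all tested genes. Their median UV difference was -0.30 on day 13 and 0.51 on day 10. The UV difference passed as lower on day 13 in 7 (0.385% of all tested genes) and as higher on day 10 in 18 (0.648%). It passed on both days in 0 and on neither day in 28, for which shares of all tested genes were not computed. The genes were chosen from these same libraries. All 3 UV libraries lay below all control libraries on day 13 and above all of them on day 10 in 14 of the 53, against 0.500% of all tested genes. On day 13 alone all UV libraries lay below in 26 (8.01% of all tested genes), and on day 10 alone all lay above in 37 (7.41%).

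Along time, the fitted level of most genes with a rise was lower on day 13 in both arms. Between day 10 and day 13 the fitted level was lower in both arms in 303 of the 414, against 33.9% of all tested genes. The decline passed the test in control cultures in 387 genes (14.0% of all tested genes were lower there) and in UV cultures in 211 (10.9%). In UV cultures 42 of the 414 passed as higher on day 13 (9.14% of all tested genes). In either direction 20.0% of all tested genes passed in UV and 26.0% in control cultures. All 211 that passed in UV cultures also passed in control cultures. The median step of the 414 genes from day 10 to day 13 was -0.44 in UV cultures and -1.58 in control cultures on the log2 scale. Median levels were 32.0 CPM (UMIs relative to the library's TMM-scaled total) in UV and 23.3 CPM in control cultures on day 13, and 48.5 CPM in UV and 73.1 CPM in control cultures on day 10. That the UV step was the higher of the 2 follows from the sign of the contrast. For the same reason a decline that passed in UV cultures was nearly bound to pass in control cultures as well.

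The 303 genes with a fitted step below 0 in both arms, 211 of which passed as lower in both, had a median step of -0.63 in UV and -1.77 in control cultures. Another 103 genes had a fitted level that went up in UV cultures and down in control cultures, with median steps of 0.43 and -0.88. The share of all tested genes with such fitted steps was not computed. Among the 103, 16 passed the test in both arms (0.0879% of all tested genes did), with medians of 0.88 and -0.91. The 103 were lower in level than the 303: their median on day 10 was 17.2 CPM in UV and 27.7 CPM in control cultures, while for the 303 it was 59.6 CPM and 89.3 CPM. The remaining 8 genes went up in both arms, by a median of 1.13 in UV and 0.16 in control cultures. Over all tested genes the median absolute step was 0.26 in UV and 0.28 in control cultures. The steps of the 2 arms correlated across genes at r = 0.73 and rho = 0.64 (18196 genes, which are not independent replicates, and no shared library). In both arms 2 day 10 libraries were shallow and no day 13 library was, and the part of this in the correlation was not tested.

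**Figure D2:**
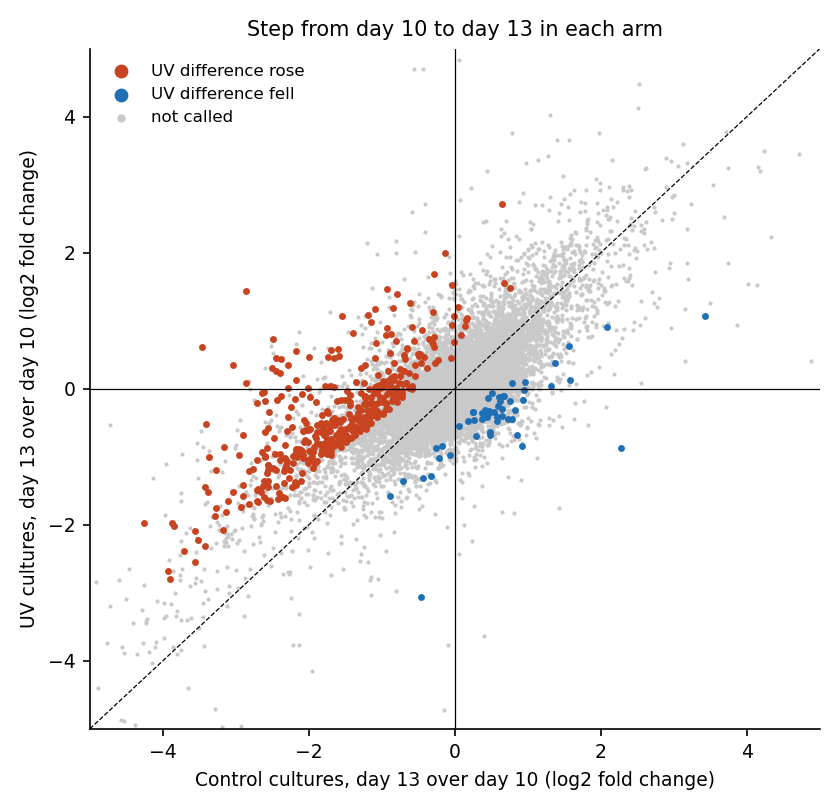
Step from day 10 to day 13 in UV cultures (vertical axis) against that in control cultures (horizontal axis), as fitted log2 fold changes, with a point per tested gene, coloured as genes whose UV difference rose or fell; 28 genes lie outside the axes, and the dashed line marks equal steps. The coloured points of the 414 genes lie above the line and mostly left of 0, where 303 had fitted steps below 0 in both arms.

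The genes with a fall moved the other way. The fitted level went down in UV and up in control cultures in 36 of the 53. It went up in both arms in 8 and down in both in 9 (33.9% of all tested genes were down in both). Such shares were not computed for the other patterns, and a UV step below the control step follows from the sign of the contrast. An increase passed in control cultures in 35 of the 53 (12.1% of all tested genes were higher there) and a decrease in UV cultures in 19 (10.9%). Median steps were -0.36 in UV and 0.53 in control cultures. The direction of a step depends on the scaling. Under total-count scaling the median step of all genes was 0.16 in UV and 0.21 in control cultures, where TMM gave 0.0017 and 0.041, and higher calls made up 3101 of 4349 in UV and 4449 of 6286 in control cultures, where TMM gave 1664 of 3641 and 2198 of 4737. The contrast between the arms did not shift in this way, with 371 genes up and 53 down under total-count scaling and 246 of the 371 still lower on day 13 in both arms.

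Taken as shares of each library, the 414 genes held 5.61%, 6.19% and 6.13% of the UMIs in UV cultures on day 7, against 7.60%, 7.76% and 6.95% in control cultures. On day 10 they held 3.35%, 3.43% and 2.94% in UV and 4.29%, 4.85% and 4.64% in control cultures. On day 13 they held 2.63%, 3.41% and 2.73% in UV and 1.99%, 2.11% and 2.37% in control cultures. The arms did not overlap on any day: the UV libraries were below control on days 7 and 10 and above it on day 13. The highest UV value on day 13 was that of replicate 2, the library whose omission lowered the count of calls most. The 53 genes held 0.494% to 0.516% of the UMIs in UV and 0.454% to 0.463% in control libraries on day 7. On day 10 they held 0.535% to 0.585% in UV and 0.385% to 0.418% in control libraries. On day 13 they held 0.401% to 0.463% in UV and 0.508% to 0.538% in control libraries. Here UV was the higher arm on days 7 and 10 and the lower on day 13. Both sets of genes were chosen from these libraries of days 10 and 13. Their separation on those days therefore describes the genes and tests nothing.

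**Figure D3:**
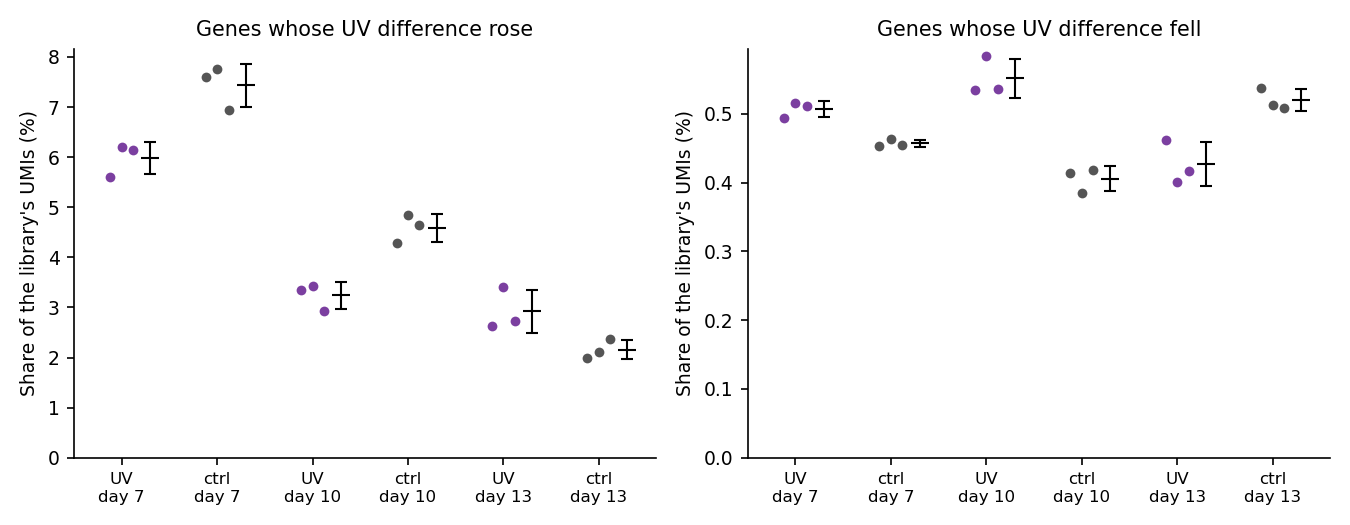
Share of each library's UMIs, in percent, held by the 414 genes whose UV difference rose (left) and the 53 whose UV difference fell (right), by arm (ctrl, control) and day; points are libraries, and the black mark gives the mean ± SD of 3 libraries. For the 414 genes the mean was 2.92% in UV and 2.16% in control cultures on day 13, and 3.24% and 4.59% on day 10. The genes were chosen from the libraries of days 10 and 13.

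G13865 had the smallest p of all rises. It stood at 23.0, 23.9 and 25.5 CPM in UV and 36.0, 47.1 and 36.5 CPM in control cultures on day 7. On day 10 it stood at 4.69, 6.61 and 2.75 CPM in UV and 10.6, 11.2 and 11.5 CPM in control cultures, and on day 13 at 5.51, 7.92 and 4.15 CPM in UV and 0.700, 1.19 and 1.08 CPM in control cultures. The arms did not overlap on any of the 3 days, and UV was the lower arm until day 10 and the higher on day 13. Its UV difference rose by 4.09 on the log2 scale between days 10 and 13 (SE 0.45, edgeR adjusted p 7.40e-07), with 2.57 on day 13 and -1.52 on day 10. The step was -3.47 in control cultures (edgeR adjusted p 2.83e-11) and 0.62 in UV cultures (edgeR adjusted p 0.170), so only the control decline passed.

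G9543 followed the same course at a higher level. Day 7 levels were 86.1, 103 and 89.2 CPM in UV and 112, 118 and 115 CPM in control cultures. Day 10 levels were 19.3, 31.2 and 20.5 CPM in UV and 30.0, 36.3 and 33.5 CPM in control cultures. Day 13 levels were 27.3, 39.8 and 25.6 CPM in UV and 9.27, 9.01 and 11.6 CPM in control cultures. UV and control overlapped on day 10 only. The UV difference rose by 2.20 (SE 0.24, edgeR adjusted p 7.40e-07), with a day 13 difference of 1.64 that passed (edgeR adjusted p 1.23e-08) and a day 10 difference of -0.55 that did not (edgeR adjusted p 0.0992). Both G13865 and G9543 passed for the change in all 25 alternatives run.

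Among the falls, G39390 had the smallest p. It was at 34.1, 36.0 and 37.8 CPM in UV and 30.7, 34.0 and 27.9 CPM in control cultures on day 7, at 37.5, 35.5 and 31.5 CPM in UV and 23.8, 12.5 and 13.6 CPM in control cultures on day 10, and at 34.2, 26.5 and 31.2 CPM in UV and 29.4, 24.3 and 32.0 CPM in control cultures on day 13. The control libraries of day 10 were the lowest of all and overlapped with no UV library. The UV difference fell by 1.10 (SE 0.23, edgeR adjusted p 0.00365). The step was 0.93 in control cultures (edgeR adjusted p 5.32e-05) and -0.17 in UV cultures (edgeR adjusted p 0.507). The change no longer passed without control day 10 replicate 3, with only the shallow day 10 libraries or at equal depth. Over the 25 alternatives its adjusted p ranged from 0.000166 to 0.282.

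G34911 was the most abundant of these 4 genes. On day 7 it was at 144, 105 and 154 CPM in UV and 130, 115 and 145 CPM in control cultures. On day 10 it was at 191, 231 and 160 CPM in UV and 98.8, 82.5 and 118 CPM in control cultures. On day 13 it was at 144, 121 and 94.7 CPM in UV and 133, 151 and 144 CPM in control cultures. The arms were apart on day 10 only, with UV higher. The UV difference fell by 1.16 (SE 0.23, edgeR adjusted p 0.00436), with a decrease in UV cultures (-0.68, edgeR adjusted p 0.00325) and an increase in control cultures (0.48, edgeR adjusted p 0.0339) that both passed. The change did not pass with only the deep libraries of day 10 (adjusted p over alternatives 3.68e-09 to 0.372).

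**Figure D4:**
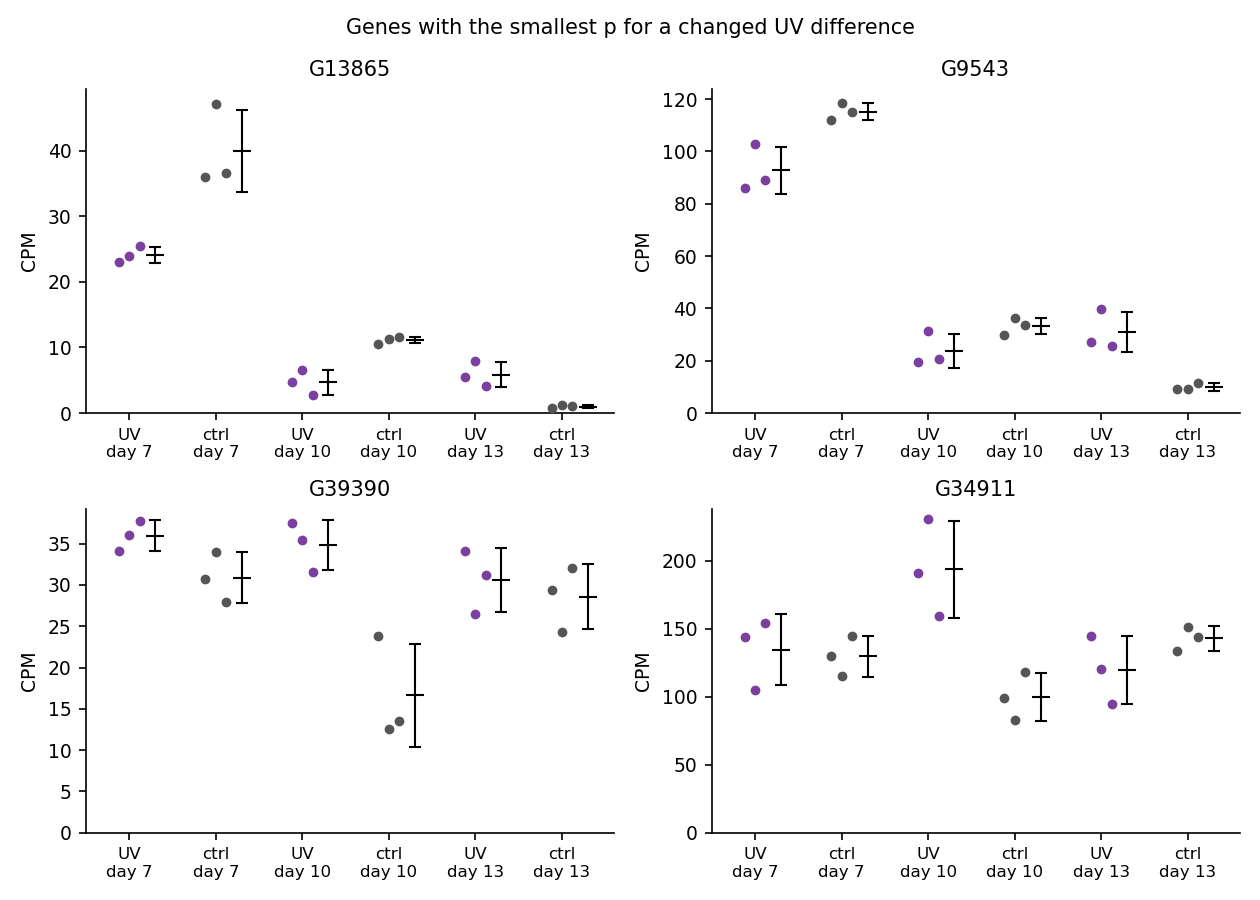
Level in CPM of the 2 genes with the smallest p for a rise (top) and the 2 with the smallest p for a fall (bottom) in the UV difference, by arm and day (ctrl, control); points are libraries, and the black mark gives the mean ± SD of 3 libraries. G13865 averaged 5.86 CPM in UV and 0.988 CPM in control cultures on day 13, and 4.68 CPM in UV and 11.1 CPM in control cultures on day 10.

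Further genes are named by the size of a side or a step, among called genes with a mean of at least 5 UMIs whose 2 groups did not overlap in that side or step. On the day 10 side, the lowest UV differences among them were those of G14800 and G22727. G14800 held 237, 214 and 263 CPM in UV and 217, 234 and 217 CPM in control cultures on day 13, against 29.3, 33.7 and 41.2 CPM in UV and 99.6, 201 and 127 CPM in control cultures on day 10. The arms overlapped on day 13 and were far apart on day 10, where the UV difference was -1.98 (SE 0.24, edgeR adjusted p 0.000321). The change was 2.07 (SE 0.31, edgeR adjusted p 0.000947) and passed in all 25 alternatives. It is 1 of the 8 genes that went up in both arms, by 2.72 in UV cultures (edgeR adjusted p 1.35e-07) and by 0.64 in control cultures (edgeR adjusted p 0.0273).

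G22727 held 1.10, 2.34 and 2.20 CPM in UV and 1.40, 1.02 and 1.34 CPM in control cultures on day 13, against 1.17, 3.00 and 2.38 CPM in UV and 8.82, 7.26 and 8.67 CPM in control cultures on day 10. UV cultures were thus already at their low level on day 10, and only the control decline of -2.71 passed (edgeR adjusted p 9.65e-09). These low levels rest on 20 UMIs in UV on day 10, and on 26 in UV and 24 in control cultures on day 13. The change was 2.51 (SE 0.55, edgeR adjusted p 0.00494). It did not pass without UV day 13 replicate 2, with only the shallow libraries of day 10 or at equal depth (adjusted p over alternatives 0.000909 to 0.207).

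The highest UV differences on day 10 by this rule were those of G11241 and G8598. G8598 held 30.9, 32.0 and 48.1 CPM in UV and 34.5, 23.1 and 22.9 CPM in control cultures on day 13, against 9.37, 14.4 and 22.5 CPM in UV and 0.882, 1.32 and 2.98 CPM in control cultures on day 10. Levels went up in both arms, by 1.07 in UV cultures (edgeR adjusted p 0.00417) and by 3.43 in control cultures (edgeR adjusted p 4.50e-07). The day 10 difference was 2.82 (SE 0.44, edgeR adjusted p 0.00115) and the change -2.36 (SE 0.50, edgeR adjusted p 0.0101). Without control day 10 replicate 3 the day 10 difference was 3.91 and the change -3.44, and the change no longer passed (edgeR adjusted p 0.0531). It did not pass without UV day 10 replicate 3 or with only the shallow day 10 libraries either (adjusted p over 25 alternatives 6.07e-10 to 0.128).

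G11241 was scarce. Over the 3 libraries of each group it had 18 UMIs in UV and 30 in control cultures on day 13, against 22 in UV and 3 in control cultures on day 10. The day 10 ratio of pooled UMIs was 8.33 (95% exact interval 2.50 to 43.5, counting error only), and 2 of the 3 control UMIs were in replicate 2. The day 10 difference of G11241 had an edgeR adjusted p of 0.0170, but of 0.471 without control day 10 replicate 3 (0.00801 to 0.523 over 22 alternatives), and it did not pass without UV day 10 replicate 3 or with only shallow or only deep libraries either. The change had an edgeR adjusted p of 0.0373 and passed in 11 of the 22 alternatives that tested it (0.0118 to 0.474).

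On the day 13 side, the highest UV differences by this rule were those of G1953 and G13865. G1953 had 2, 21 and 15 UMIs in UV and 0, 1 and 0 in control libraries on day 13, against 0 in every UV library and 0, 1 and 25 UMIs in control libraries on day 10. Of the 26 UMIs in control on day 10, 25 came from the deep replicate 3. UV cultures were at least 8.42-fold higher on day 13 than on day 10, taking 3 UMIs over the group as the floor for 0. On day 13 the pooled ratio of UV to control was 54.5 (95% exact interval 9.20 to 2207, counting error only). The change had an edgeR adjusted p of 0.000161, but of 0.217 without control day 10 replicate 3 (3.74e-12 to 0.366 over 23 alternatives). With only the shallow day 10 libraries the change of G1953 did not pass either. Its second identifier is shared by 3 genes, between which reads could be divided, so its values are uncertain.

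The lowest UV differences on day 13 by this rule were those of G3677 and G23260. G3677 held 16.8, 26.3 and 16.6 CPM in UV and 35.2, 40.5 and 43.0 CPM in control cultures on day 13, against 13.5, 13.8 and 12.6 CPM in UV and 14.99, 13.2 and 13.0 CPM in control cultures on day 10. The arms were level on day 10 and apart on day 13 (-0.96, SE 0.15, edgeR adjusted p 5.19e-05). G23260 held 17.1, 14.9 and 19.0 CPM in UV and 28.9, 33.5 and 33.7 CPM in control cultures on day 13, against 8.20, 9.01 and 9.34 CPM in UV and 8.82, 9.90 and 6.64 CPM in control cultures on day 10. Both genes went up in both arms, and by more in control cultures: G3677 by 0.63 in UV and 1.57 in control, and G23260 by 0.90 in UV and 2.08 in control cultures. The change passed narrowly for G3677 (-0.93, edgeR adjusted p 0.0459), which passed in 8 of 25 alternatives (0.00689 to 0.565), and for G23260 (-1.18, edgeR adjusted p 0.0182) it passed in 18 of 25 (0.00763 to 0.501).

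The steepest decline in UV cultures by this rule was that of G4692, followed by G9051. G4692 had 0.551, 0.540 and 0.976 CPM in UV and 3.15, 1.70 and 1.75 CPM in control cultures on day 13, against 3.51, 6.01 and 6.78 CPM in UV and 3.53, 2.64 and 2.98 CPM in control cultures on day 10. The UV libraries of day 13 lay below all others. The step was -3.06 in UV cultures (edgeR adjusted p 3.97e-05) and -0.46 in control cultures (edgeR adjusted p 0.502), and the change was -2.60 (SE 0.72, edgeR adjusted p 0.0410), which passed in 13 of 23 alternatives (0.00332 to 0.357). A second gene shares its second identifier, so the value is uncertain.

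G9051 is an example of an abundant transcript that declined steeply in both arms. It held 11.3, 18.7 and 9.52 CPM in UV and 10.8, 13.6 and 12.6 CPM in control cultures on day 13, against 97.8, 117 and 75.3 CPM in UV and 154, 207 and 191 CPM in control cultures on day 10. The arms overlapped on day 13, and UV was lower on day 10 (-0.98, SE 0.16, edgeR adjusted p 0.000667). The change of 1.11 (SE 0.26, edgeR adjusted p 0.0147) arose from a larger decline in control (-3.90) than in UV cultures (-2.79). It did not pass without UV day 13 replicate 2 or control day 13 replicate 1, or with only the shallow day 10 libraries (adjusted p over alternatives 3.30e-05 to 0.229).

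The steepest declines in control cultures by this rule were those of G9347 and G39630. G9347 had 1.65, 3.60 and 2.20 CPM in UV and 0.350, 1.36 and 0.538 CPM in control cultures on day 13, against 11.7, 12.02 and 9.16 CPM in UV and 8.82, 13.2 and 16.5 CPM in control cultures on day 10. Its arms overlapped on day 10 and were apart on day 13, with a step of -1.97 in UV and -4.26 in control cultures and a change of 2.29 (SE 0.52, edgeR adjusted p 0.00822). G39630 had 11.8, 24.5 and 15.1 CPM in UV and 13.3, 15.1 and 12.8 CPM in control cultures on day 13, against 128, 133 and 86.8 CPM in UV and 195, 219 and 210 CPM in control cultures on day 10. Its arms were apart on day 10 and overlapped on day 13, with steps of -2.67 in UV and -3.92 in control cultures and a change of 1.25 (SE 0.30, edgeR adjusted p 0.0241). Without control day 13 replicate 2 the change of G9347 was 2.96. It did not pass with only the shallow day 10 libraries, or without UV day 13 replicate 2 or control day 10 replicate 3 (0.000274 to 0.201 over 25 alternatives). That of G39630 passed in 18 of 25 (3.56e-07 to 0.134), and the losses included leaving out UV day 13 replicate 2, control day 13 replicate 1 or 3, or control day 10 replicate 2 or 3.

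Called genes spanned the range of abundance. Ordered by mean CPM over the 12 libraries and split into 4 equal parts of 4549 genes, a rise was called in 29, 63, 105 and 217 genes from the lowest to the highest part, or 0.638%, 1.39%, 2.31% and 4.77%. A fall was called in 4, 12, 15 and 22, or 0.0879%, 0.264%, 0.330% and 0.484%. The median absolute change of called genes ran the other way, at 2.28, 1.39, 1.03 and 0.87 on the log2 scale. In simulated data at the real depths, the test recovered 50% of genes whose UV difference changed 2-fold and 81% of those changed 4-fold, over 100 genes of each, with 7.09% false among the 141 calls. The simulated shallow and deep libraries differed in depth only, so these rates need not hold for the real calls. A second identifier was shared with another gene by 29 of the 414 and 3 of the 53, and only 1 second identifier was held by 2 called genes, which changed in the same direction.

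The libraries of day 7 did not enter the contrast. In them the fitted UV level was below control in 408 of the 414 genes, against 54.2% of all tested genes, with a median UV difference of -0.42 on the log2 scale where all tested genes had -0.02. It passed as lower in 130 of the 414 (1.72% of all tested genes). In either direction 1.92% of all tested genes passed on day 7. In the 53 genes the day 7 difference was above 0 in 30, against 45.8% of all tested genes, and below in 23, with a median of 0.03, and 1 passed as higher (0.198% of all tested genes). The median level of the 414 genes was also highest on day 7, at 102 CPM in UV and 133 CPM in control cultures. Single genes could differ: G14800 averaged 33.6 CPM in UV and 79.4 CPM in control cultures on day 7, and 238 CPM and 222 CPM on day 13. Day 7 shared the model's estimate of spread with the other days, but no library.

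The contrast was also computed with each kind of day 10 library alone. The genes were called from these same libraries, so that all 414 rises and all 53 falls kept their direction is a description and no independent check. With the deep libraries alone, day 10 has 1 library per arm, which is assumed to vary like the libraries of the other groups. With only the shallow day 10 libraries the median change of the 414 genes was 0.97 and 144 still passed. The deep libraries alone gave a median of 1.22, and 307 passed. The UV level on day 10 was below control in 399 of the 414 in the shallow libraries, with a median of -0.47 and 11 passing as lower on that day, and in 413 in the deep ones, with a median of -0.75 and 117 passing. With all day 10 libraries 211 passed. Over all tested genes the day 10 difference passed as higher in 29 and lower in 24 with the shallow libraries, and as higher in 31 and lower in 198 with the deep ones, where all libraries gave 118 and 342. For the 53 genes the median change was -0.91 in the shallow libraries, where 11 passed, and -0.81 in the deep ones, where 9 passed. Over all tested genes 189 passed with the shallow libraries, 158 of them rises, and 406 with the deep ones, 390 of them rises.

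Rises kept the majority of calls in each of the 12 fits that left out 1 library. The count of rises ranged from 241 without UV day 13 replicate 2 to 491 without UV day 13 replicate 1, and that of falls from 18 to 79 without the same 2 libraries. Of the 414 genes, 191 passed in all 12 of these fits, as did 4 of the 53. Falls were therefore the less stable part: their count of 53 moved by more than 1.5 times without UV day 10 replicate 2 (31) or 3 (30), UV day 13 replicate 2 (18), and control day 13 replicate 1 (28) or 2 (32).

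**Figure D5:**
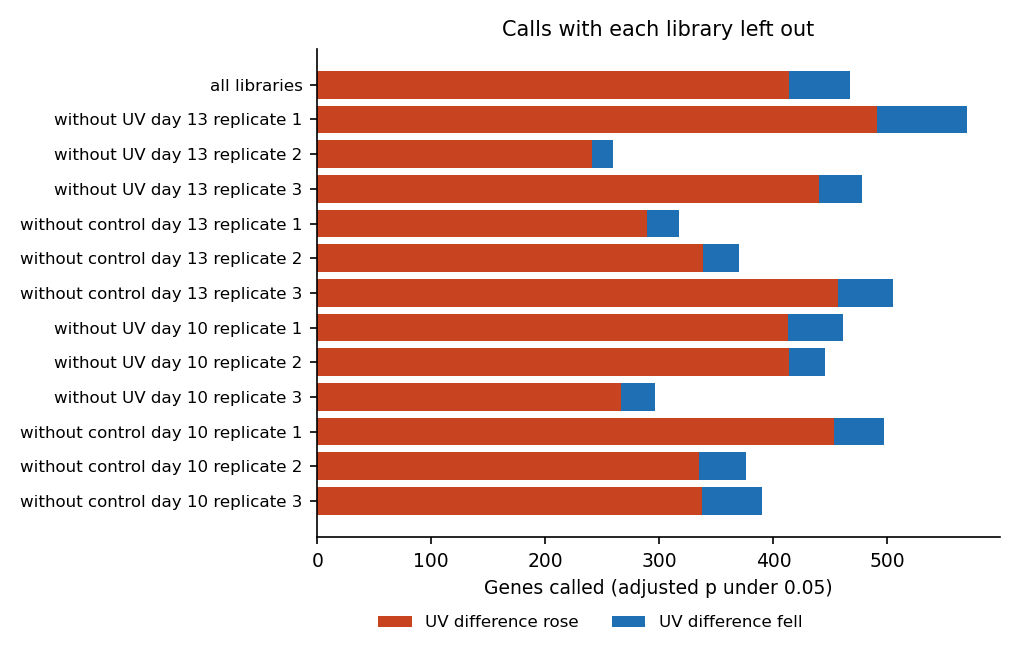
Genes called for a change in the UV difference (horizontal axis, counts at an adjusted p under 0.05) with all libraries and with each of the 12 libraries of days 13 and 10 left out, split into rises and falls. Totals run from 259 without UV day 13 replicate 2 to 570 without UV day 13 replicate 1, beside 467 with all libraries.

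The authors' deposited table holds no test of the change itself, but gives a fold change for each of its sides. In the authors' deposited table, the UV difference of day 13 less that of day 10 had the same sign as here in all 414 and all 53 genes, with medians of 1.07 and -0.86 on the log2 scale. The authors' deposited table placed UV above control on day 13 and below it on day 10 in 410 of the 414, with an adjusted p under 0.05 on day 13 in 139, on day 10 in 203 and on at least 1 of these days in 294. For the 53 genes it placed UV below control on day 13 and above it on day 10 in 50. The adjusted p there was under 0.05 on day 13 in 6, on day 10 in 12 and on at least 1 day in 18. Shares over all genes of the deposited table were not computed. These values come from the same counts that chose the genes, so they describe the genes and test nothing.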

How the data were processed

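RNA of the cultures was made into MARS-seq2.0 libraries, per the labels' protocols. The authors deposited UMI counts and read counts per gene, not normalized, and a table of log2 fold changes and adjusted p-values named for DESeq2, per the file headers. The aligner, genome build and gene models were not given in the sources used here. UMI counts were fitted with edgeR 4.0.16 (R 4.3.3): TMM scaling, filterByExpr (minimum count 10, minimum total 15), robust quasi-likelihood F-tests, 1 mean for each of the 6 groups and all 18 libraries, so that groups share an estimate of the spread. P-values are two-sided and Benjamini-Hochberg adjusted over 18196 genes per comparison, with a threshold of 0.05. The tested genes held 99.7% to 99.8% of each library's UMIs. CPM use TMM-scaled totals. Fitted fold changes of scarce genes depend on edgeR's prior count. No pair of replicate libraries agreed within counting noise.

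Named genes were, among the 467 called genes with a mean of at least 5 UMIs over the 12 libraries, the 2 with the smallest p in each direction and, for each side and each step, the 2 highest and 2 lowest fold changes past the threshold with no overlap between groups. The members, lists and rules were chosen with earlier results of these data known. Planned lists by function were not run, as 0 identifiers matched. Alternatives used limma 3.58.1 and DESeq2 1.42.0, other scalings, filters and counts, thinning by binomial draws to 1060640 UMIs, batch and replicate terms, and each of the 12 libraries left out. The procedure was tested on simulated data.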

Additional observations from a re-analysis of the deposited data

Results flagged for a closer look

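The UV difference of 467 genes differed between day 13 and day 10 by an interaction test, and each named gene is among them. The rises were, as log2 values, 4.09 for G13865, 2.20 for G9543, 2.07 for G14800, 2.51 for G22727, 1.11 for G9051, 2.29 for G9347 and 1.25 for G39630. G1953 had a fitted change of 11.65, a value set by the prior count because UV cultures held 0 UMIs on day 10. The falls were -1.10 for G39390, -1.16 for G34911, -3.15 for G11241 (3 UMIs in control on day 10), -2.36 for G8598, -0.93 for G3677, -1.18 for G23260 and -2.60 for G4692.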

How the results depend on the processing

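Over 25 alternatives the change of the UV difference gave between 189 and 648 genes, with rises making up 83.6% to 96.1%. At equal depth it gave 210 genes, with only the shallow day 10 libraries 189, and with 1 library left out 259 to 570. The replicate block gave 530 genes, and 578 when applied within each day. The labels do not pair the replicates: same-numbered libraries of the 2 arms correlated in their deviations over 0.1 in 1 of 9 pairs, and 4 of 9 UV libraries correlated best with their own number. The pair over 0.1 was replicate 3 of day 10 (r = 0.23), the deep library of each arm. A term for the kind of day 10 library gave 551 genes, with 476 rises and 75 falls. The falls, 53 in the main result, numbered 83 with the replicate block within each day, 87 without a low-count filter, 30 with DESeq2, 30 with only the libraries compared, 20 at equal depth, 31 with only shallow and 16 with only deep day 10 libraries.

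For UV against control on day 10 the count of 460 became 724 without a filter, 276 at equal depth, 53 with only shallow and 229 with only deep day 10 libraries, and 183 to 572 with 1 library left out. On day 13 the count of 351 became 592 without a filter, 124 at equal depth and 129 to 445 with 1 library left out. The steps gave 2208 genes in UV and 2754 in control cultures at equal depth, where 3641 and 4737 were called at full depth. Equal depth uses fewer molecules, and fits with fewer libraries fewer samples; the cause of the other shifts was not tested. Of 747 values of named genes under alternatives, 667 stayed past the threshold, 80 did not and 0 changed direction. Alternatives in which a gene was filtered out or got no adjusted p are not counted. The named genes were chosen from these same libraries, so these counts describe them and test nothing.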
